A study of Mus musculus with 32 samples.

Results

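The set described here holds 41 genes that drive, carry out or restrain the cell cycle, taken by gene name from the 54532 genes counted in mouse kidney. All 41 were found in the table. Kidney RNA was sequenced from 32 wild-type C57bl/6 mice aged 6 to 8 weeks, in 8 groups of 4: 4 groups of each sex, of which 1 was the healthy group (Day 0) and the others 2, 3 or 5 days following a single intraperitoneal dose of 20 mg/kg cisplatin, a platinum drug that crosslinks DNA and injures the kidney tubule. Each library came from the kidney of 1 mouse and holds RNA of all its cell types, so that fewer cells of a type and less RNA per cell cannot be told apart. By the sample labels, cisplatin was also given to the females of Day 0 but not to the males. The study describes Day 0 mice as healthy, which was followed.

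A dividing cell goes through G1, S phase, G2 and mitosis. D-type cyclins with Cdk4 and Cdk6, then E-type cyclins with Cdk2, release the E2F factors from the retinoblastoma protein Rb1, and the MCM helicase, PCNA and the enzymes of nucleotide supply copy the DNA. Cyclins A and B with Cdk1 then drive entry into mitosis, which the Wee1 kinase holds back and the Cdc25 phosphatases release. Damaged DNA stops the cycle through Chek1 and Wee1 and through p53, whose target Cdkn1a (p21) inhibits the cyclin-dependent kinases. Tubule cells of a healthy adult kidney rarely divide, and surviving tubule cells are known to re-enter the cycle after injury.

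The promoters of the members differ by phase in short motifs known for cell cycle genes. RefSeq promoters (GRCm38.p6, 250 bases before to 50 after the start of the gene) matched 31 of the 41 members. The cell cycle homology region (CHR, searched as TTTGAA or TTCGAA on both strands) was in 10 of 12 genes of G2 and mitosis (83.3%), in 2 of 9 genes of DNA replication (22.2%) and in 21.7% of all 27025 promoters of the table. The CCAAT box was in 11 of these 12 mitotic genes (91.7%), in 8 of the 9 replication genes (88.9%) and in 41.1% of all promoters. An E2F site, searched as TTTCCCGC, TTTCGCGC, TTTGCCGC or TTTGGCGC, was in 1 of the 12 mitotic genes (8.33%), in 4 of the 9 replication genes (44.4%) and in 2.6% of all promoters. These matches are a description of letters and were tested for nothing. The 120 bases before the start of 6 members are given 5′ to 3′ on the strand of the gene, to show the arrangement in 4 mitotic genes, a helicase subunit and a G1/S phosphatase, with motif letters in capitals (ATTGG and TTCAAA are CCAAT and TTTGAA on the other strand, and GCGCGAAA is an E2F site on the other strand that overlaps TTTGGCGC in Mcm6). They lie at chr7:135716380-135716499 for Mki67 (minus strand, 2 CHR), chr11:99024190-99024309 for Top2a (minus strand, 2 CHR and 3 CCAAT boxes), chr10:69352913-69353032 for Cdk1 (minus strand, 2 CHR and 2 CCAAT boxes), chr4:118437344-118437463 for Cdc20 (minus strand, 1 CHR and 2 CCAAT boxes), chr1:128359706-128359825 for Mcm6 (minus strand, 3 E2F sites and 2 CCAAT boxes) and chr9:109875459-109875578 for Cdc25a (plus strand, 1 E2F site and 1 CCAAT box).
Mki67: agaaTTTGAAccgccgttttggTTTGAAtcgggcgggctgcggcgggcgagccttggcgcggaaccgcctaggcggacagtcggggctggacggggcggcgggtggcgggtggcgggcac
Top2a: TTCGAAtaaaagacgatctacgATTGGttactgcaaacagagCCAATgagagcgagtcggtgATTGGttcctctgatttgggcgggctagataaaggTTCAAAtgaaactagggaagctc
Cdk1: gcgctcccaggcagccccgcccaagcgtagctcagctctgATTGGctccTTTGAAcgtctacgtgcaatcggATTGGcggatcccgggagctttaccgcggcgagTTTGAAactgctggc
Cdc20: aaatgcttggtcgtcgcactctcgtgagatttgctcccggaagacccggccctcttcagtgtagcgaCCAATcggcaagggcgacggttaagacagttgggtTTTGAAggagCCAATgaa
Mcm6: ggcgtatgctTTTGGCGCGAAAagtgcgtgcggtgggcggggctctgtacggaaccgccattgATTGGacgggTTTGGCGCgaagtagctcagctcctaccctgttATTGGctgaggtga
Cdc25a: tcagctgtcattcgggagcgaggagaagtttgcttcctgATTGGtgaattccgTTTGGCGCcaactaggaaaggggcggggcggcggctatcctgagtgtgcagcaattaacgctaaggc

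Total counts per library ranged from 16502107 to 35961325 (median 23677202.5). Levels are given as CPM, the count scaled by an effective library size (TMM over the 32 libraries and the 18220 genes that passed the filter on low counts), not by the total count. Mitochondrial genes took 4.49% to 23.97% of the counts at Days 0 to 3 and 9.30% to 79.8% at Day 5. Against its label, the library called male mouse 1 of Day 5 had 4153 counts for Xist, which females transcribe, and 387 for Y-linked genes. Markers of the proximal tubule summed to at least 539 CPM in every library, with the lowest sums at Day 5 in males. Changes were tested with edgeR on the counts within the groups compared, and "rose" or "fell" below means a Benjamini-Hochberg adjusted p under 0.05 over all genes tested. A differentially expressed gene (DEG) in the sense of the study also needed an absolute log2 fold change over 1.5.

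Per length, the genes of the G1 phase were the most abundant and those of mitosis the least. The median FPKM (fragments scaled by gene length and library size) over the 32 libraries was 10.3 for the 5 G1 cyclins and kinases, 1.28 for the 6 G1/S genes, 1.73 for the 10 replication genes, 0.338 for the 16 genes of G2 and mitosis and 5.35 for the 4 brakes and checkpoint kinases. Cdk4 had the highest mean FPKM (17.9), followed by Ccnd1 (13.2), Pcna (13.04) and Ccnd3 (10.3). The lowest were the spindle checkpoint kinase Bub1 (0.0758) and the phosphatase Cdc25c (0.0991). Bub1 was at 3 counts or fewer in 12 of 32 libraries and Cdc25c in 18, and neither passed the filter on low counts in most comparisons.

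Wee1, the kinase that inhibits Cdk1 by phosphorylation, rose by Day 2 in males and females, and was still up at Day 3 (GRCm38 chr7:110122046-110143286, plus strand). In males it stood at 5.59, 7.40, 8.39 and 7.48 CPM at Day 0, at 22.9, 21.8, 23.1 and 25.7 at Day 2, at 19.4, 14.4, 17.6 and 15.7 at Day 3 and at 19.9, 11.6, 12.2 and 5.90 at Day 5. In females it stood at 5.97, 6.85, 4.31 and 11.9 CPM at Day 0, at 25.5, 26.4, 29.2 and 18.3 at Day 2, at 25.0, 10.4, 26.2 and 25.9 at Day 3 and at 18.6, 12.4, 17.5 and 24.9 at Day 5. Every treated library at Day 2 was above every Day 0 library of its sex, and at Day 3 this held in males, whereas in females mouse 2 at Day 3 (10.4) lay below mouse 4 at Day 0 (11.9). Of all genes, 24.4% in males and 15.3% in females did not overlap with Day 0 at Day 2, and 38.3% in males at Day 3. The change at Day 2 was 3.26-fold in males (log2 fold change 1.70, SE 0.169, adjusted p = 0.00477) and 3.41-fold in females (1.77, SE 0.319, adjusted p = 0.0305). At Day 3 it was 2.32-fold in males (1.21, SE 0.170, adjusted p = 0.00586) and 2.98-fold in females (1.57, SE 0.383, adjusted p = 0.0495). At Day 5 the log2 fold change was 0.84 in males (adjusted p = 0.106) and 1.33 in females (adjusted p = 0.144), and the female groups did not overlap, as held for 8.6% of all genes. Wee1 was a DEG in males at Day 2 and in females at Day 2 and Day 3. The male calls held in 8 of 8 fits that each left out 1 mouse, at both days, but not with the mouse number as a replicate block. With the block, the male adjusted p was 0.0806 at Day 2 and 0.0573 at Day 3. The female calls held in 3 of 8 fits that left out 1 mouse at Day 2 and in 2 of 8 at Day 3. At Day 2 the female call was lost without mouse 1 or 2 of Day 0 or without mouse 1, 2 or 3 of Day 2, where the adjusted p reached 0.129. At Day 3 it held only without mouse 4 of Day 0 or mouse 2 of Day 3, the adjusted p reached 0.168, and it was also lost with DESeq2 size factors. The log2 fold change stayed between 1.61 and 2.12 at Day 2 and between 1.40 and 1.92 at Day 3. The difference between the sexes in the change from Day 0 was −0.09 on the log2 scale at Day 2 (adjusted p = 1), −0.38 at Day 3 (adjusted p = 0.96) and −0.51 at Day 5 (adjusted p = 0.69).

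**Figure D1:**
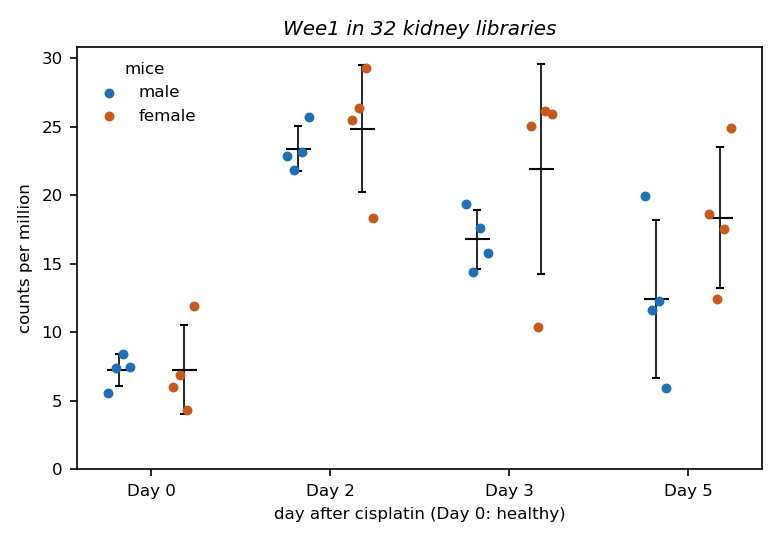
CPM of Wee1 in each of the 32 libraries (points, by sex) with the mean and SD of each group of 4 mice. The Day 0 libraries lie between 4.31 and 11.9 and the Day 2 libraries between 18.3 and 29.2.

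Few other members passed the test. In males at Day 2, Wee1 was the only 1 of 40 members tested that rose and none fell, where 1.81% of all 16051 genes tested rose and 1.35% fell. DESeq2 called 1 member there (2943 of all genes), and 6 members had an unadjusted p under 0.05 (4654 of all genes). At Day 3 in males, 1 of 39 rose (Wee1) and 3 fell (Aurkb, Cdkn2c and Chek1), against 11.4% of 15908 genes that rose and 13.1% that fell. At Day 5 in males, 4 of 39 rose (Ccnd2, Mcm4, Rrm1 and Cdc25b) and none fell, against 8.98% and 10.2% of 14969 genes. In females 1 of 39 rose at Day 2 and at Day 3 (Wee1 each time) and none fell, where 0.774% of genes rose and 1.16% fell at Day 2, and 1.26% rose and 4.28% fell at Day 3. No member of 39 passed at Day 5 in females, where 0.185% of genes rose and 0.0738% fell, with 2 members at an unadjusted p under 0.05 (2548 of 16260 genes) and 1 called by DESeq2 (732 genes). Of the members tested, 32 of 40 had a positive log2 fold change in males at Day 2 (median 0.46, where the median of all genes tested was 0.03), 15 of 39 at Day 3 (median −0.27, all genes 0.02) and 24 of 39 at Day 5 (median 0.23, all genes 0.04). In females the positive ones numbered 24 of 39 at Day 2 (median 0.18), 27 of 39 at Day 3 (0.18) and 27 of 39 at Day 5 (0.19), each beside 0.03 for all genes. These comparisons share their Day 0 mice within each sex.

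**Figure D2:**
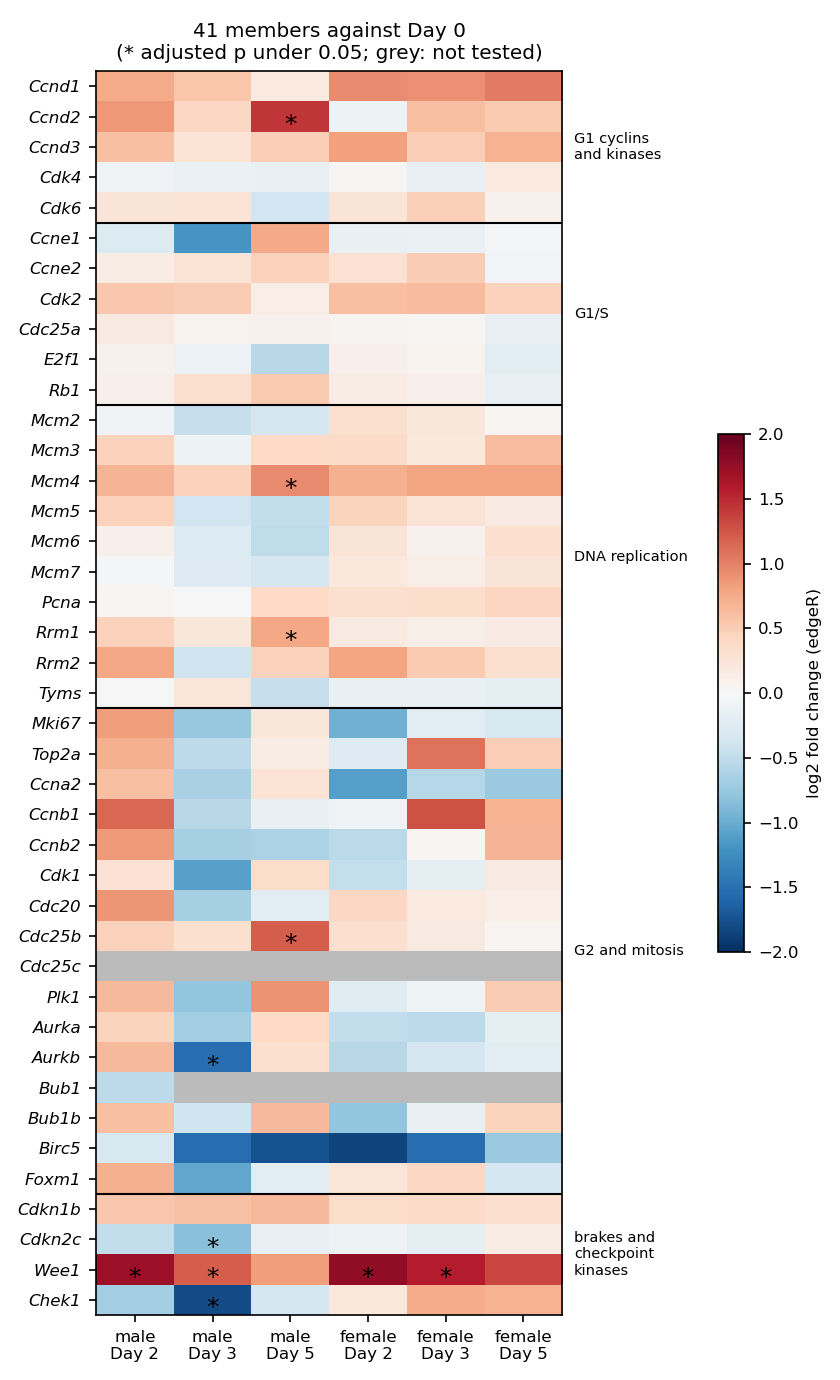
Log2 fold change against Day 0 of the 41 members in the 6 comparisons of treated with Day 0 mice (edgeR), grouped by role, with the called members marked. Wee1 is the member that stands at 1.21 or above at Days 2 and 3 for males and females alike.

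The 3 members that fell in males at Day 3 were low or moderate in level. Chek1, the kinase that relays stalled replication to Cdc25 and Wee1, stood at 0.814, 1.10, 1.97 and 1.55 CPM at Day 0 and at 0.501, 0.154, 0.570 and 0.35 at Day 3 (log2 fold change −1.79, SE 0.494, adjusted p = 0.0338). In females Chek1 stood at 0.454, 0.715, 0 and 0.755 CPM at Day 0 and at 1.24, 0.514, 0.675 and 0.912 at Day 3 (0.74, adjusted p = 0.529). The male groups did not overlap, as held for 38.3% of all genes, and the female groups did, where 19.3% of all genes did not. At the other days Chek1 stood at 1.14, 1.07, 0.281 and 0.888 CPM in males at Day 2 and at 0.615, 1.04, 0.806 and 1.68 at Day 5, and at 0.293, 0.855, 0.762 and 0.361 in females at Day 2 and at 1.63, 1.08, 0.24 and 0.257 at Day 5. Aurkb, the kinase of the chromosomal passenger complex, stood at 0.597, 1.45, 0.876 and 0.805 CPM in Day 0 males and at 0.250, 0.386, 0.342 and 0.311 at Day 3 (−1.52, SE 0.422, adjusted p = 0.0343). At Day 3 this rested on 6 to 10 counts per library. Aurkb was at 2.90, 0.583, 0.361 and 1.96 CPM in males at Day 2 and at 0.615, 0.446, 0.484 and 2.95 at Day 5. In females it was at 0.844, 0.660, 0.735 and 0.324 CPM at Day 0, at 0.391, 0.370, 0.536 and 0.433 at Day 2, at 0.719, 0.290, 0.382 and 0.655 at Day 3 and at 0.566, 0, 0.789 and 0.729 at Day 5. Cdkn2c (p18), an inhibitor of Cdk4 and Cdk6, fell in males from 15.5, 18.7, 19.8 and 33.5 CPM to 12.2, 11.9, 12.7 and 12.6 (−0.83, SE 0.231, adjusted p = 0.0345). Each of these 3 calls held in 3 of 8 fits that left out 1 mouse and was lost without mouse 2 of Day 0 or without any 1 mouse of Day 3, with adjusted p values up to 0.0937 for Chek1, 0.101 for Aurkb and 0.0925 for Cdkn2c. In these fits the log2 fold change ranged from −2.01 to −1.52 for Chek1, −1.69 to −1.23 for Aurkb and −0.98 to −0.55 for Cdkn2c. The calls of Chek1 and Aurkb were also lost in the fit over all 8 groups (adjusted p = 0.062 and 0.0976) and with no filter on low counts (0.0684 and 0.116).

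Cdkn1b (p27), which inhibits the cyclin E and cyclin A kinases, did not pass the test at any day. Its male groups did not overlap with Day 0, as held for 24.4% of all genes tested at Day 2, 38.3% at Day 3 and 27.3% at Day 5. It stood at 26.6, 27.4, 14.6 and 27.2 CPM in Day 0 males, at 34.6, 33.6, 37.4 and 31.6 at Day 2, at 33.8, 36.6, 36.8 and 35.8 at Day 3 and at 40.95, 35.5, 38.7 and 28.5 at Day 5. The log2 fold changes were 0.53 (adjusted p = 0.124), 0.58 (adjusted p = 0.0545) and 0.65 (adjusted p = 0.0685). In females it stood at 22.1, 16.7, 22.3 and 34.4 CPM at Day 0, at 27.1, 34.7, 29.3 and 32.5 at Day 2, at 29.4, 34.4, 31.4 and 30.1 at Day 3 and at 26.0, 43.9, 15.6 and 34.1 at Day 5, with overlap at each day. Without female Day 0 mouse 4, the highest of that group, Cdkn1b passed at Day 2 (log2 fold change 0.60, adjusted p = 0.0432) and at Day 3 (0.61, adjusted p = 0.0111). Without male Day 0 mouse 3, the lowest of its group, it passed in males at Day 3 (0.41, adjusted p = 0.00272).

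Among the G1 cyclins and kinases, Ccnd2 rose in males at Day 5. Ccnd2 (cyclin D2) stood at 9.01, 6.90, 6.35 and 19.0 CPM in Day 0 males, at 21.7, 14.8, 15.8 and 22.1 at Day 2, at 12.01, 15.5, 11.4 and 16.02 at Day 3 and at 13.3, 34.3, 31.6 and 26.7 at Day 5. The rise at Day 5 was 2.70-fold (log2 fold change 1.43, SE 0.407, adjusted p = 0.0376) with overlap, since Day 0 mouse 4 (19.0) lay above Day 5 mouse 1 (13.3). In females Ccnd2 stood at 7.53, 8.001, 7.84 and 19.9 CPM at Day 0, at 9.64, 8.64, 9.88 and 12.6 at Day 2, at 16.5, 15.1, 20.2 and 14.96 at Day 3 and at 15.6, 24.2, 6.45 and 16.1 at Day 5, and passed at no day.

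Ccnd1 (cyclin D1) varied widely among the Day 0 mice. It stood at 49.7, 43.2, 13.4 and 90.6 CPM in Day 0 males and at 38.4, 20.5, 13.9 and 69.1 in Day 0 females, against 117, 57.5, 68.6 and 85.2 in males and 91.2, 53.1, 57.7 and 73.5 in females at Day 2. At Day 3 it stood at 48.7, 82.1, 66.5 and 93.1 CPM in males and 64.6, 90.02, 70.6 and 46.3 in females, and at Day 5 at 76.6, 52.3, 50.4 and 34.7 in males and 42.6, 111, 50.3 and 85.5 in females. The groups overlapped at each day in both sexes, and the log2 fold changes lay between 0.20 in males at Day 5 and 1.03 in females at Day 5 (adjusted p = 0.34). Without female Day 0 mouse 4, Ccnd1 passed in females at Day 2 (1.4996, adjusted p = 0.0112), Day 3 (1.46, adjusted p = 0.0145) and Day 5 (1.59, adjusted p = 0.0471). Ccnd3 (cyclin D3) stood at 74.9, 79.4, 24.4 and 89.6 CPM in Day 0 males, at 81.9, 92.4, 91.9 and 137 at Day 2, at 81.7, 77.9, 83.6 and 81.1 at Day 3 and at 82.8, 106, 76.1 and 95.7 at Day 5. In females it stood at 86.0, 59.7, 21.9 and 102 CPM at Day 0, at 198, 80.4, 93.4 and 106 at Day 2, at 85.1, 91.2, 96.8 and 113 at Day 3 and at 105, 104, 111 and 116 at Day 5. Female Day 5 lay above female Day 0 without overlap, where 8.6% of all genes did not overlap, but the test was not passed (0.69, adjusted p = 0.4). The kinases Cdk4 and Cdk6 had log2 fold changes from −0.39 (Cdk6, male Day 5) to 0.47 (Cdk6, female Day 3) and neither was called.

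None of the 6 G1/S genes was called in any comparison with Day 0. E2f1, an E2F factor that switches on S phase genes, stood at 3.04, 4.002, 4.89 and 6.39 CPM in Day 0 males, at 5.33, 4.01, 4.42 and 5.62 at Day 2, at 5.51, 3.55, 3.76 and 4.08 at Day 3 and at 3.97, 2.38, 2.42 and 3.09 at Day 5. In females it stood at 3.15, 3.24, 4.80 and 3.51 CPM at Day 0, at 5.37, 3.49, 3.19 and 3.68 at Day 2, at 4.14, 2.97, 3.78 and 4.65 at Day 3 and at 4.78, 0.962, 2.64 and 4.16 at Day 5. The groups of treated mice overlapped with Day 0 each time. Rb1, the retinoblastoma protein that holds E2F factors, had a log2 fold change of 0.32 in males at Day 3 (adjusted p = 0.0902) and 0.52 at Day 5 (adjusted p = 0.056), without overlap at both days, as held for 38.3% and 27.3% of all genes. Cdk2 reached 0.63 in females at Day 3 (adjusted p = 0.201), and Ccne1, Ccne2 (cyclins E1 and E2) and Cdc25a were not called either.

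Of the 10 replication genes, Mcm4 and Rrm1 rose in males at Day 5. Mcm4, a subunit of the replicative helicase, went from 4.50, 4.45, 3.61 and 6.27 CPM at Day 0 to 7.22, 9.51, 8.06 and 9.83 at Day 5 (1.92-fold, log2 fold change 0.94, SE 0.262, adjusted p = 0.035). Its female groups did not overlap with Day 0 at any day either (15.3%, 19.3% and 8.6% of all genes did not), with log2 fold changes of 0.71 (adjusted p = 0.146), 0.79 (adjusted p = 0.0758) and 0.79 (adjusted p = 0.26). Rrm1, the large subunit of ribonucleotide reductase, went from 8.47, 9.60, 10.3 and 11.4 CPM to 15.8, 14.9, 21.4 and 13.3 (1.72-fold, 0.78, SE 0.216, adjusted p = 0.0348). The other helicase subunits were not called there. Mcm2, Mcm5, Mcm6 and Mcm7 had log2 fold changes of −0.33, −0.49, −0.52 and −0.34 in males at Day 5, and Mcm3 of 0.40. Pcna, the sliding clamp, ranged from 20.5 to 32.2 CPM in Day 0 males, 25.1 to 31.3 at Day 2, 26.1 to 30.7 at Day 3 and 26.7 to 41.6 at Day 5. In females it ranged from 17.3 to 34.2 CPM at Day 0, 26.3 to 39.7 at Day 2, 26.1 to 39.6 at Day 3 and 31.7 to 39.6 at Day 5. All its treated groups overlapped with Day 0, and its log2 fold changes lay between 0.02 and 0.43. Rrm2, the small subunit of the reductase, and Tyms, thymidylate synthase, were not called against Day 0.

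Of the 16 genes of G2 and mitosis, Cdc25b rose in males at Day 5 and Aurkb fell in males at Day 3, and no other was called against Day 0. Cdc25b, a phosphatase that activates Cdk1, went from 5.75, 5.15, 4.42 and 6.85 CPM to 10.2, 17.4, 10.5 and 11.1 (2.32-fold, log2 fold change 1.21, SE 0.26, adjusted p = 0.016). Its male groups at Day 0 and Day 5 did not overlap, as held for 27.3% of all genes tested there. Its call held in 5 of 8 fits that left out 1 mouse, that of Mcm4 and of Rrm1 in 3 and that of Ccnd2 in 2, with log2 fold changes of 0.9994 to 1.31 for Cdc25b, 0.84 to 1.09 for Mcm4, 0.61 to 0.86 for Rrm1 and 1.26 to 1.88 for Ccnd2. With no filter on low counts the calls of Mcm4 (adjusted p = 0.0975) and Rrm1 (0.0815) were lost. No member was called in males at Day 5 without Day 0 mouse 1, Day 0 mouse 2 or Day 5 mouse 2, and 1 (Cdc25b) without Day 5 mouse 3 or mouse 4. Without male Day 5 mouse 1, the library with Xist counts against its label, the log2 fold changes were 1.66 for Ccnd2, 1.31 for Cdc25b, 1.04 for Mcm4 and 0.81 for Rrm1, all called, and Mcm6 also fell (−0.65, adjusted p = 0.039). Cell type markers moved at this day too. Those of the proximal tubule had a median log2 fold change of −1.85, with 2 of 7 called lower and none positive, and summed to 539 to 4096 CPM against 7780 to 9072 at Day 0. Higher were 3 of 8 markers of macrophages and neutrophils (median 1.48, 1 lower), 3 of 5 of endothelium (0.90), 2 of 5 of fibroblasts (0.74), 2 of 9 of other nephron segments (0.04), 1 of 5 of erythroid cells (1.44) and none of 7 of T and B cells (0.70), and their part in these calls was not tested. Birc5 (survivin), which partners Aurkb, had log2 fold changes of −1.84 in females at Day 2 (adjusted p = 0.091) and −1.75 in males at Day 5 (adjusted p = 0.111).

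**Figure D3:**
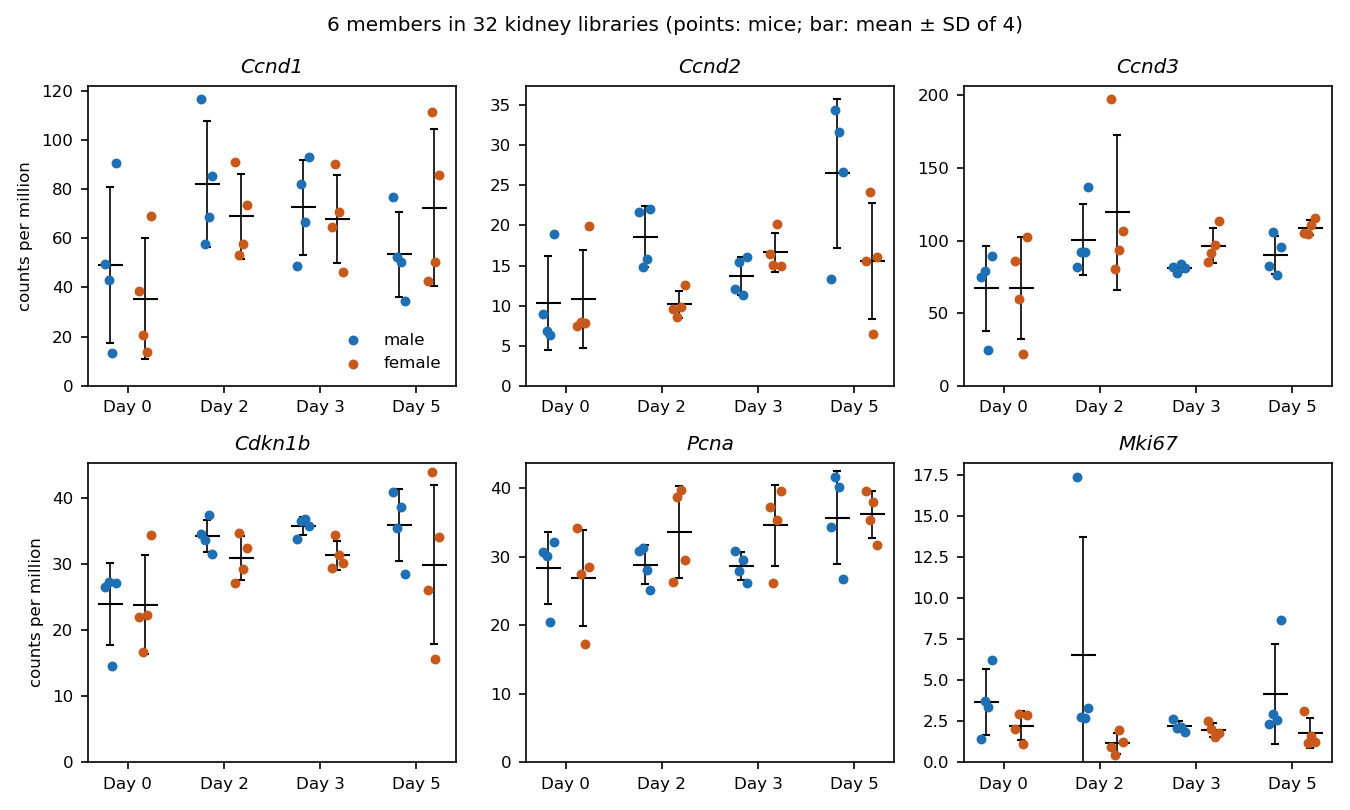
CPM of 6 members in each of the 32 libraries by sex and day, with the mean and SD of each group of 4 mice. An SD bar that would pass below 0 ends at 0. Mki67 in males at Day 2 shows 1 library at 17.4 above the other 3 at 2.69 to 3.33.

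In males at Day 2 a single mouse stood above the others in nearly all mitotic genes. Mki67, the proliferation marker Ki-67, stood at 17.4 CPM in mouse 1 and at 2.75, 2.69 and 3.33 in the others (594, 85, 67 and 90 counts), against 1.41, 3.75, 3.36 and 6.27 at Day 0. In the other groups it stood at 2.67, 2.08, 2.17 and 1.87 CPM in males at Day 3, at 2.35, 2.97, 2.58 and 8.70 in males at Day 5, at 2.01, 2.94, 1.13 and 2.91 in females at Day 0, at 0.912, 0.462, 2.00 and 1.26 at Day 2, at 2.55, 2.01, 1.55 and 1.80 at Day 3 and at 3.15, 1.20, 1.61 and 1.24 at Day 5. Mouse 1 was the highest of its group in 15 of the 16 genes of G2 and mitosis, Cdc25b apart, and was over 2-fold above the mean of the other 3 mice in 14 of them. The median of these ratios was 3.42, with Ccnb2 (cyclin B2) at 6.08 and Mki67 at 5.94 the highest. Over the 10 replication genes the median ratio was 1.24 and none was over 2-fold. With this mouse the log2 fold change was positive in 13 of 15 mitotic genes tested (median 0.65), and without it in 6 of 15 (median −0.07). Mki67 went from 0.84 (adjusted p = 0.446) to −0.33 without it (adjusted p = 0.701). Its marker sums of T and B cells (11.8 CPM, group range 10.6 to 90.2), of macrophages and neutrophils (90.7, range 68.8 to 118) and of fibroblasts (409, range 299 to 819) lay within those of its group, and its erythroid sum (163) was the highest of its group, where the lowest was 7.51. Their part in the result was not tested.

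**Figure D4:**
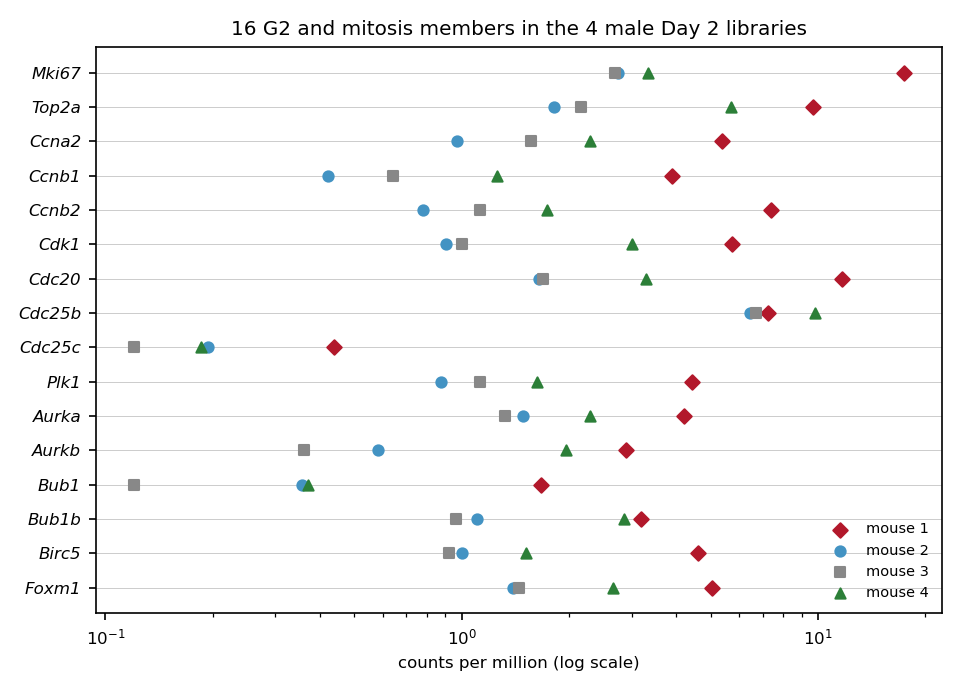
CPM of the 16 genes of G2 and mitosis in the 4 male mice of Day 2, on a log10 axis. Mouse 1 is the highest in 15 of 16 genes.

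Single mice weighed on the mitotic genes in other comparisons too. Male Day 0 mouse 4 was the highest of its group in 11 of the 16 genes and male Day 5 mouse 4 in 9. At Day 3 in males 1 of 14 mitotic genes tested had a positive log2 fold change (median −0.67), and without Day 0 mouse 4 it was 5 of 14 (median −0.11). At Day 5 in males it was 9 of 14 (median 0.25), 5 of 15 without Day 5 mouse 4 (median −0.25) and 12 of 14 without Day 0 mouse 4 (median 0.69). At Day 2 in males it was 13 of 15 without Day 0 mouse 4 (median 1.17). From Day 2 to Day 3 in males, the log2 fold change was negative in all 13 mitotic genes tested (median −1.38), and also in all 13 without Day 2 mouse 1 (median −0.63). None passed, and 0% of the 16232 genes tested passed in that comparison, as did 0% of 16974 from Day 2 to Day 3 in females. There, 22 of 38 members in males and 3 of 39 in females had an unadjusted p under 0.05, beside 1410 and 678 of all genes, and DESeq2 called 3 and 1 members, beside 72 and 61 of all genes. In females, 3 of 14 mitotic genes had a positive log2 fold change at Day 2 (median −0.48), 6 of 14 at Day 3 (median −0.11) and 8 of 14 at Day 5 (median 0.08). Female Day 3 mouse 1 was the highest of its group in 14 of the 16 genes, and without it 5 of 15 were positive at Day 3 (median −0.34). Top2a, Ccna2, Ccnb1, Ccnb2, Cdk1, Cdc20, Plk1, Aurka, Bub1b and Foxm1 were among those with no call against Day 0, and their CPM peaked at no more than 11.6 (Cdc20 in male Day 2 mouse 1). At Day 3 in males, where Cdk1 had −1.09 (adjusted p = 0.0865), the T and B cell markers summed to 5.72 to 8.15 CPM, against 12.3 to 109 at Day 0, and the erythroid markers to 0.849 to 2.25, against 434 to 2150. In females the T and B cell markers summed to 16.1 to 44.0 CPM at Day 0, 4.30 to 9.205 at Day 2 and 3.97 to 13.4 at Day 3, with none positive (1 of 6 called lower at Day 2, 0 of 7 at Day 3). The female erythroid markers summed to 411 to 2653 CPM at Day 0, 7.16 to 44.9 at Day 2 and 3.13 to 78.0 at Day 3, with 5 of 5 called lower at both days. The part of these markers in the lower values was not tested.

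Between the sexes, no member passed at Day 0 (0.449% of 16042 genes did) or at Day 5 (0.276% of 15237 did). At an unadjusted p under 0.05 these were 2 of 39 members at Day 0 and 6 of 37 at Day 5, beside 1289 and 3094 of all genes, and DESeq2 called 1 and 0 members, beside 435 and 1088 of all genes. At Day 2, 1 of 39 members was higher in males, Ccnd2 (1.81-fold, log2 difference 0.86, SE 0.18, adjusted p = 0.0481), where 0.891% of 16608 genes were. This call held in 1 of 8 fits that left out 1 mouse, the one without female mouse 4, and the difference lay between 0.77 and 0.97 in all 8. It was also lost in the fit over all 8 groups (adjusted p = 0.419), with DESeq2 size factors and with at least 10 counts in every library. Mki67 at Day 2 was higher in males by 2.50 on the log2 scale without passing (adjusted p = 0.112). Male mouse 1 stood at 17.4 CPM, and the other 3 males, from 2.69 to 3.33, also lay above every female, at most 2.00. Ccnd2, Top2a and Birc5 did not overlap either and were higher in males, and Tyms lay lower without overlap (−0.46, adjusted p = 0.128), beside 8.96% of all genes without overlap in either direction. Of the mitotic genes tested, 13 of 14 were higher in males at Day 2 (median log2 difference 1.46), and without male mouse 1 also 13 of 14 (median 0.83). This direction was not particular to Day 2. In fits that left out 1 mouse, the median at Day 0 was 0.54 to 0.86, but 0.09 without male mouse 4. It was −0.39 to −0.13 at Day 3 and 0.37 to 0.95 at Day 5. At Day 2 some cell type markers differed too. The markers of erythroid cells (5 of 5, median 1.54), fibroblasts (5 of 5, 0.78), T and B cells (5 of 6, 0.70) and endothelium (5 of 5, 0.52, Kdr called) also lay higher in males, and their part in these differences was not tested. At Day 3, 4 of 39 members were lower in males, namely Rrm2, Rrm1, Aurka and Ccnd3, where 10.7% of 16673 genes were. Rrm2 stood at 2.67, 2.47, 2.35 and 2.57 CPM in males and at 6.02, 2.95, 4.75 and 5.30 in females without overlap, as held for 25.7% of all genes (log2 difference −0.95, SE 0.209, adjusted p = 0.0128), and Rrm1 at 12.3, 11.6, 11.3 and 11.4 against 14.9, 13.4, 15.2 and 14.2 (−0.34, SE 0.0752, adjusted p = 0.013). These 2 subunits of 1 enzyme were called in 8 of 8 fits that left out 1 mouse, whereas Aurka, at 1.001, 1.39, 0.912 and 1.05 CPM in males and 1.74, 1.59, 1.51 and 1.71 in females (−0.61, adjusted p = 0.0447), and Ccnd3 (−0.28, adjusted p = 0.0483) were called in 2 of 8 each (Aurka without mouse 2 of either sex, Ccnd3 without female mouse 1 or 2). In the fit over all 8 groups none of the 4 was called, with adjusted p = 0.467 for Rrm1, 0.227 for Rrm2, 0.674 for Aurka and 0.902 for Ccnd3. Rrm1 also lay lower in males without overlap at Day 0, so its difference was not confined to Day 3. At Day 3, 5 of 5 markers of endothelium, 4 of 7 of the proximal tubule, 2 of 5 of fibroblasts and 1 of 8 of macrophages and neutrophils were called higher in males and 4 of 9 of other nephron segments lower, and their part in these differences was not tested. No member passed the test of a difference between the sexes in the change from Day 0, at Day 2, Day 3 or Day 5. Of all genes 0%, 0.0114% and 0.243% did. At an unadjusted p under 0.05 there were 0, 5 and 5 members, beside 738, 1252 and 2568 of all genes, and DESeq2 called 0, 0 and 1 members, beside 21, 82 and 684 of all genes.

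The other genes of the pathway were read from 5 lists of 143 genes in all. Among 16 other CDK inhibitors and p53-linked arrest genes, 5 of 15 tested rose in males at Day 2, 6 of 14 at Day 3 and 9 of 14 at Day 5, and in females 5 of 15 at Day 2, 5 of 15 at Day 3 and 4 of 14 at Day 5, and none fell. Of all genes tested, 1.81%, 11.4% and 8.98% rose in males and 0.774%, 1.26% and 0.185% in females at these days. Cdkn1a (p21) was not among the calls of males at Day 2, where it ranged from 10.4 to 257 CPM (8.30 to 12.8 at Day 0). It had log2 fold changes of 3.09 at Day 3 (adjusted p = 0.00352) and 3.19 at Day 5 (adjusted p = 0.0092) in males and of 4.32 (adjusted p = 0.004), 4.20 and 3.85 at the 3 days in females. Ccng1 (cyclin G1), a p53 target, rose on the log2 scale by 1.47 in males at Day 2 (adjusted p = 0.0427) and 1.78 at Day 3 (adjusted p = 0.000855), was not among their calls at Day 5, and rose by 2.51, 2.26 and 2.05 in females. Plk2, a polo-like kinase that p53 induces, rose on the same scale by 1.96, 1.90 and 1.52 in males at the 3 days (adjusted p = 0.0314, 0.00162 and 0.0175) and by 2.63, 2.44 and 2.51 in females.

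The replication list of 44 genes had 1 rise and 5 falls among 43 tested in males at Day 3, where 11.4% of all genes rose and 13.1% fell, with Dut (−1.02) and Gmnn (geminin, −0.85) among those that fell and Timeless (1.17) the one that rose. It had 3 rises and 2 falls among 41 in males at Day 5 (8.98% and 10.2% of all genes), where Cdc7 rose (1.89) and Rfc2 fell (−0.73), and no call at Day 2 in males or at any day in females. In the list of 50 spindle, kinetochore and cytokinesis genes, Cks2, a subunit of cyclin-dependent kinases, fell in males at each day (log2 fold changes −1.23, −1.0045 and −2.47) and in females at Day 2 and Day 3 (−1.32 at both). Of this list 1 of 47 fell at Day 2, 4 of 40 fell at Day 3 and 1 of 34 rose while 2 fell at Day 5 in males, where 1.35%, 13.1% and 10.2% of all genes fell and 8.98% rose at Day 5. In females 2 of 41 rose and 1 fell at Day 2 (0.774% and 1.16% of all genes), 2 of 46 rose and 1 fell at Day 3 (1.26% and 4.28%), and none of 40 was called at Day 5. Ckap2, a spindle protein, was among the rises, from 0 to 0.270 CPM at Day 0 to between 2.31 and 11.7 at Day 2. Of 20 E2F, RB and DREAM factors, Tfdp2 rose in males at Day 3 (0.52), and at Day 5 Fbxw7 (0.80) and Tfdp2 (0.75) rose and E2f5 fell (−0.76). Of 13 damage checkpoint genes, Mdc1 rose in males at Day 2 (0.79), Atr (0.96), Trp53bp1 (0.88) and Mdc1 (0.81) at Day 3, and Mdc1 rose (0.68) and Hus1 fell (−0.95) at Day 5. No gene of that list was called in females.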

How the data were processed

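Paired-end 150 bp reads of kidney RNA from 32 mice were aligned by the authors to GRCm38. The submitters' processing notes list HTSeq, DESeq2, GRCm39 and mm39, yet 53499 of the 54532 genes (98.1%) carry the coordinates of GENCODE M21 on GRCm38, the build used here. The aligner and strandedness are not given in the sources used here. The tables deposited by the authors hold raw read counts and FPKM values of each gene (scaled to gene length and an effective library size), and the FPKM were used only to compare levels between genes.

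Counts were tested with edgeR 4.0.16 and limma 3.58.1 in R 4.3.3 (TMM, filterByExpr, robust quasi-likelihood), each of 15 comparisons on its own groups, with Benjamini-Hochberg adjustment over all genes tested at 0.05. A DEG also passed an absolute log2 fold change of 1.5. CPM divide by a TMM effective library size over all 32 libraries. The test was run on simulated counts with larger changes than those of the called members and no outlying mouse. It therefore does not show how reliable calls that rest on single mice are. With 3 counts or fewer a gene is at the limit of detection. Each library was 1 mouse, and p-values measure the spread between 4 mice per group. DESeq2 1.42.0 served as an alternative. Other alternatives were limma voom, DESeq2 size factors, other filters, 1 fit over 8 groups, a replicate block, no mitochondrial genes and each mouse left out.

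All 41 members are named. Values in every library are given for members that were DEGs against Day 0 and for Mki67, Pcna, Ccnd1, Ccnd2, Ccnd3, Cdkn1b and E2f1 (Pcna by range), and in the groups of the call for other called members. Of the 5 pathway lists at most 3 called genes per comparison are named. Members and lists were chosen with earlier results of these data known, so no count over them is independent support. A single gene of the pathway lists is not reported here.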

Additional observations from a re-analysis of the deposited data

Results flagged for a closer look

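Among 328 sets of 4 mice (41 members in 8 groups), 32 (9.76%) held 1 mouse whose gap to the nearest other was a larger part of the group's range than Dixon's 95% limit for 4 samples. Independent normal values pass that limit about 1 time in 20. These sets share their mice and some rest on few counts, so whether 9.76% exceeds that rate cannot be told. The values are CPM. Male Day 2 mouse 1 stood highest in Birc5 (4.59), Bub1 (1.67), Ccnb2 (7.37), Cdc20 (11.6) and Mki67 (17.4), all of G2 and mitosis. Male Day 5 mouse 4 stood highest in Aurkb (2.95), Bub1 (0.421), Mki67 (8.70) and Plk1 (6.04), and male Day 0 mouse 4 in Cdc20 (5.00), Cdk1 (4.03) and Foxm1 (4.14). Bub1 in male Day 5 rested on 1 to 3 counts in each mouse, at or under the floor of 3 counts, and mouse 1 had as many counts (3) as mouse 4, so that no difference between these mice was detectable at this depth. Female Day 2 mouse 4 stood highest in Bub1b (0.975), Ccnb2 (0.866) and Plk1 (1.08) and lowest in Mcm7 (14.5). Male Day 0 mouse 3 stood lowest in Cdc25a (7.74) and Cdkn1b (14.6) and highest in Cdc25c (2.26) and Mcm2 (19.2).

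The remaining sets lay in 8 libraries. Male Day 2 mouse 4 was lowest in Ccne2 (0.851) and highest in Cdk4 (66.7) and Tyms (11.7), and male Day 3 mouse 3 was lowest in Ccnb1 (0.266) and highest in Ccne2 (2.13). Female Day 5 mouse 1 was lowest in Mcm6 (18.6) and highest in Top2a (2.83). Single values stood out in female Day 0 mouse 4 (Ccnd2, highest, 19.9), female Day 2 mouse 1 (Rb1, lowest, 19.96), female Day 2 mouse 2 (Rrm1, highest, 16.6), female Day 3 mouse 2 (Wee1, lowest, 10.4) and male Day 5 mouse 2 (Cdc25b, highest, 17.4).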

How the results depend on the processing

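Counts of called members are given against the edgeR counts of the report, and the cause of each move was not tested. The DESeq2 Wald test called 2 members in females at Day 2, 3 at Day 3 and 1 at Day 5 against Day 0, 7 in males at Day 3, 3 in males and 1 in females from Day 2 to Day 3, 1 between the sexes at Day 0, 6 at Day 2, and 1 in the sex difference of the Day 5 change. Limma voom with quality weights called 10, 15 and 14 in males at Days 2, 3 and 5 (beside 7446, 9081 and 8197 of all genes), 8, 8 and 2 in females (beside 8269, 8152 and 3070), 1 from Day 2 to Day 3 in females, 2, 4, 15 and 5 between the sexes at Days 0, 2, 3 and 5, and 6 in the sex difference of the Day 5 change. The fit over all 8 groups called 3, 2 and 10 in males and 3, 3 and 2 in females at Days 2, 3 and 5, 2, 2, 0 and 3 between the sexes at Days 0, 2, 3 and 5, and 1 in the sex difference of the Day 5 change. For this fit and those that follow, counts over all genes are not given, so their counts of members are no result about the set. With no filter on low counts 2 members were called in males at Day 3 and 2 at Day 5. With DESeq2 size factors 0 were called in females at Day 3 and 0 between the sexes at Day 2, and with at least 10 counts in every library also 0 between the sexes at Day 2. Leaving out the least correlated library of each Day 0 and Day 5 group (chosen after seeing the data) gave 6, 8 and 1 in females at Days 2, 3 and 5, 8 in males at Day 3, 4 between the sexes at Day 5 and 1 in the sex difference of the Day 5 change. No called member changed direction under any alternative, and leaving out mitochondrial genes changed no count of called members.

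Mouse numbers were not taken to pair the samples, since no comparison had every pair above 0.1. The deviations of same-numbered mice from their group means correlated above 0.1 in at most 3 of 4 pairs, and at most 6 of the 8 mice correlated best with their own number, both between the sexes at Day 0. With the mouse number as a replicate block, 0 members were called in males at Day 2 and at Day 3, 1 at Day 5, 0 in females at Day 2 and at Day 3, and 0 between the sexes at Day 2, and the adjusted p of Wee1 was 0.0806 and 0.0573 in males and 0.0704 and 0.145 in females at Days 2 and 3. These were the highest for Wee1 over the 9 alternatives other than leaving out 1 mouse at a time, whose lowest were 6.36e-17 and 3.32e-08 in males and 3.85e-05 and 0.00114 in females. The block changed no other count of called members by over 1.5 times.

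With 1 mouse left out at a time, called members ranged from 1 to 3 in males at Day 2, from 1 to 8 at Day 3 and from 0 to 5 at Day 5, from 0 to 6, 0 to 8 and 0 to 2 in females, and from 0 to 1, 2 to 10 and 0 to 2 between the sexes at Days 2, 3 and 5. The highest female counts all came without female Day 0 mouse 4. With that mouse out, Cdk2 (log2 fold change 0.88), Mcm4 (0.83) and Birc5 (−2.14) were also called at Day 2. In males at Day 3, leaving out Day 0 mouse 2 or any Day 3 mouse left Wee1 alone, and leaving out Day 0 mouse 3 gave 8. Between the sexes at Day 3 the 10 came without female Day 3 mouse 2. Counts over all genes are not given for these fits. Neither the ranges nor members called only with 1 mouse out are therefore a result about the set. Low counts limit Bub1, Cdc25c, Ccnb1 and Aurkb most, and a change in them may have been missed at this depth.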

Other observations

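At Day 0 the mice of both sexes that carry the same number differed from their groups in a like way in 3 of 4 pairs, with correlations of deviations over all genes of 0.27, −0.07, 0.44 and 0.48 for numbers 1 to 4. Mouse 4 of each sex held the highest Ccnd1 (90.6 and 69.1 CPM in males and females) and the highest Ccnd3 (89.6 and 102), and mouse 3 of each sex the lowest of both genes. In mouse 4, mitochondrial genes took 23.97% of counts in the male and 19.7% in the female, and fibroblast markers summed to 652 and 396 CPM. In mouse 3, erythroid markers summed to 2150 and 2653 CPM. The columns of male and female Day 0 mouse 4 stand last in the count table, after the other 30. The labels give no batch, and the part of these differences in the Day 0 comparisons was not tested.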
